A study of Mus musculus with 19 samples.

Results

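The genes described here are 10 genes of the neddylation pathway, out of 51912 genes counted in each library of E13.5 mouse cerebral cortex. They were chosen by name for their roles, and *Uba3* was selected on its low level in cortex deleted for both *Ino80* and *Trp53*. Every *Uba3* value that rests on those double mutant embryos is therefore a description without a test, and counts that are read as results cover the 9 other genes. The list holds *Nedd8*, which encodes the modifier itself, *Uba3* and *Nae1* for the activating enzyme, *Ube2m* and *Ube2f* for the conjugating enzymes, the cullins *Cul1*, *Cul2*, *Cul3* and *Cul5*, and *Cand1*. All 10 had enough counts to be tested in each of the 3 comparisons, and the lowest count of any of them in a library was 23.

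In neddylation, the small ubiquitin-like protein NEDD8 is first activated by an E1 enzyme, a heterodimer of UBA3, which carries the catalytic cysteine, and NAE1. It is then handed to an E2 enzyme, UBE2M or UBE2F, and joined to a lysine of a cullin, which switches on the cullin-RING ubiquitin ligase built on that scaffold, and CAND1 binds cullins without NEDD8 and lets their substrate receptors be exchanged. In the embryonic cortex, such ligases degrade cell cycle inhibitors in dividing progenitors, and ligases built on CUL5 degrade DAB1, the intracellular adaptor of Reelin signalling, in migrating neurons.

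The study deleted *Ino80*, the ATPase of a chromatin remodelling complex, with and without *Trp53*, the gene of p53, and sequenced RNA of dissected cortex at embryonic day 13.5 as 1 library per embryo. The 5 cKO-E embryos were *Emx1* Cre/+;*Ino80* fl/fl and the 7 dKO-E embryos had that genotype together with *Trp53* fl/fl. The 7 ctrl embryos are labelled control, with no allele named in the labels, and all 19 embryos were of a mixed C57BL/6 and 129 background. *Emx1* Cre recombines in cortical progenitors and their descendants, so interneurons, microglia, vessels and meninges in the same tissue keep both genes. The ctrl embryos came from 4 litters, the cKO-E embryos from 5 and the dKO-E embryos from 2. The ctrl group held 4 females and 3 males, the cKO-E group 4 and 1, and the dKO-E group 2 and 5.

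The libraries held between 820915 and 8095810 counts on genes, and a count of 3, the smallest taken as above 0, equals between 0.371 and 3.65 CPM (counts scaled to a common library total, by TMM factors). This floor covers counting error only. The counts are sums over whole genes, so the *Ino80* sum, 121 CPM in ctrl, 166 in cKO-E and 186 in dKO-E, cannot show the loss of deleted exons, and neither can the *Trp53* sum. Of the cortical markers, *Sox2* and *Tubb3* were at 0 in every library, while 7 other progenitor markers and 5 other neuron markers were detected. The study stained SOX2 protein in progenitors of E13.5 cortex, so a sum of 0 in these counts cannot be read as absent expression. Why these sums were 0 was not tested. Summed microglial markers ranged from 8.26 to 19.7 CPM in ctrl, from 34.3 to 44.2 in cKO-E and from 7.53 to 10.9 in dKO-E. Summed progenitor markers ranged from 674 to 765 CPM, from 500 to 677 and from 571 to 745 in the same order, and summed interneuron markers from 9.15 to 83.8, from 63.8 to 119 and from 28.8 to 69.4. Whether these cell types had a part in the differences described here was not tested, and in bulk tissue fewer cells of a type and less RNA per cell cannot be told apart.

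Promoter sequence is shown for *Uba3*, *Nae1* and *Cul5*, the genes that were lower in both mutants. The windows are from RefSeq on GRCm38.p6 and run from 250 bases before the annotated start of transcription to the first 30 bases after it, at chr6:97205618-97205897 for *Uba3*, chr8:104534608-104534887 for *Nae1* and chr9:53667478-53667757 for *Cul5*, all on the minus strand. They are printed 5′ to 3′ on the strand of the gene, and capitals mark a GC box (GGGCGG), the core of the SP1 site, on either strand.
Uba3: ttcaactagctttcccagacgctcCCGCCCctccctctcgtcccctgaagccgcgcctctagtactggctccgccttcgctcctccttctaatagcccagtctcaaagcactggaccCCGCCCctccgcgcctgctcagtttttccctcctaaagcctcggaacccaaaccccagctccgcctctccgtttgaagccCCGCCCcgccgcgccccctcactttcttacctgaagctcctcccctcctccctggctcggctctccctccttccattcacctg
Nae1: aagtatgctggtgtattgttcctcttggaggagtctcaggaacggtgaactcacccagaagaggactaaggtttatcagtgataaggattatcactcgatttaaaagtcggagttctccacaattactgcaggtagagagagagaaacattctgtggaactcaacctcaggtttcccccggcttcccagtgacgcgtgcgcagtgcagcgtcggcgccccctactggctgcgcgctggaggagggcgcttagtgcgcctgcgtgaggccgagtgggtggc
Cul5: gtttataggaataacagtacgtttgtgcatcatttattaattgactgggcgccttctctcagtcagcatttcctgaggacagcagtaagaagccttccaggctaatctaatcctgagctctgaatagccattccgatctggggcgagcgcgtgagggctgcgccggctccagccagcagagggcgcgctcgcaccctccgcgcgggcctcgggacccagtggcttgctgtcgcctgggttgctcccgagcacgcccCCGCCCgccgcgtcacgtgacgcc
The *Uba3* window held 3 GC boxes, the *Cul5* window 1 and the *Nae1* window 0. RefSeq windows matched 9 of the 10 genes, with 14 windows in all, and 9 of the 14 held a GC box, against 34.7% of all 32851 promoter windows of the same length. A second motif, GCCATNTT, which resembles the site of YY1, a subunit of the INO80 complex, was searched on both strands and stood in no window of the 9 genes and in 5.22% of all windows. These matches are descriptions of letters and say nothing of binding. *Uba3* is 63.6% G and C in its window, *Cul5* 61.1% and *Nae1* 55.0%.

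Against ctrl, both mutants had less RNA of both subunits of the activating enzyme and of *Cul5*, where the low *Uba3* of dKO-E is what it was selected on. *Cul5* in cKO-E passed a false discovery rate of 0.001, while *Nae1* in both mutants and *Cul5* in dKO-E passed 0.05 only. RNA of the modifier, the conjugating enzymes and the other cullins passed neither threshold in either mutant by the test without covariates described below. *Uba3* fell to 48.9% of ctrl in cKO-E. *Cul5* stood at 78.1% and *Nae1* at 82.9% of ctrl in the same embryos. Genes were tested with edgeR's quasi-likelihood test, with p values adjusted over all genes tested, at the study's false discovery rate of 0.001 and, as a second threshold, at 0.05.

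**Figure D1:**
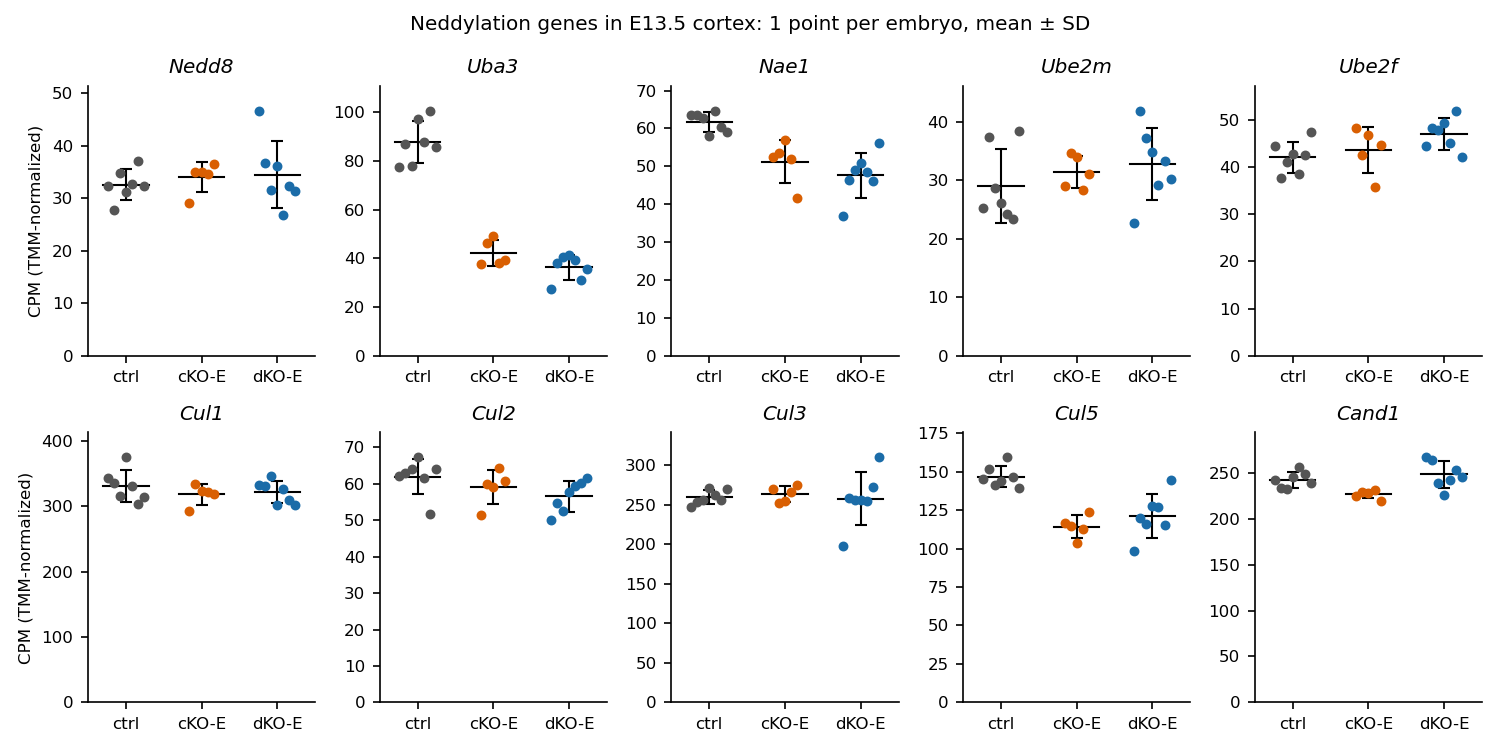
Normalized expression in CPM (vertical axes, starting at 0) of the 10 genes in ctrl, cKO-E and dKO-E cortex, with 1 point per embryo and bars for the mean ± SD of 7, 5 and 7 embryos. All cKO-E and dKO-E points of *Uba3* and *Nae1* lie below all ctrl points, the cKO-E points of *Cul5* and *Cand1* do so too, and the other genes overlap between groups.

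*Nedd8* (ENSMUSG00000010376.14, chromosome 14, 55662263 to 55672124) encodes the modifier. Its level averaged 32.6 ± 2.92 CPM over the 7 ctrl embryos, 34.0 ± 2.87 over the 5 cKO-E embryos and 34.5 ± 6.31 over the 7 dKO-E embryos (± SD). The groups overlapped, and the log2 fold change was 0.07 (95% interval -0.13 to 0.26) in cKO-E and 0.10 (-0.12 to 0.31) in dKO-E, neither past the test. The exons of *Nedd8* share 184 bases with *Gmpr2* on the opposite strand, and since the strand setting of the counting is not given in the sources used here, reads there cannot be assigned to 1 of the 2 genes with certainty.

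*Uba3* (ENSMUSG00000030061.16) lies on chromosome 6 of GRCm38 from 97183670 to 97205647 on the minus strand. In ctrl its expression ranged from 77.7 to 101 CPM with a median of 87.0. The cKO-E embryos had 37.6, 46.5, 49.3, 38.3 and 39.2 CPM, and the dKO-E embryos ranged from 27.4 to 41.4 with a median of 38.3. Thus the highest mutant embryo, cKO-E C, stood well under the lowest ctrl embryo, ctrl A, while the mutants overlapped each other.

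The means of *Uba3* were 87.7 ± 8.73 CPM over the 7 ctrl embryos, 42.2 ± 5.32 over the 5 cKO-E embryos and 36.3 ± 5.26 over the 7 dKO-E embryos (± SD). The log2 fold change in cKO-E, -1.03 with an SE of 0.09, had an adjusted p of 1.25e-06 by the quasi-likelihood test of edgeR, rank 21 by p among 11660 genes. The cKO-E embryos had no part in the choice of *Uba3*, but the ctrl embryos did, so this p is not independent of that choice. In dKO-E, where the gene was selected, the log2 fold change was -1.25 (SE 0.09), and dKO-E stood at 42.0% of ctrl. Between the mutants the log2 fold change of dKO-E over cKO-E was -0.21 (95% interval -0.45 to 0.02), also given without a test.

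*Nae1* (ENSMUSG00000031878.18, chromosome 8, 104511028 to 104534637, minus strand) encodes the other subunit of the same enzyme. Its expression ranged from 58.0 to 64.7 CPM with a median of 62.7 in ctrl. It was 52.5, 53.5, 56.9, 51.9 and 41.6 CPM in the cKO-E embryos, and from 36.8 to 56.2 with a median of 48.5 in dKO-E. Every mutant embryo was below every ctrl embryo, although cKO-E C and dKO-E G came close to the lowest ctrl embryo, ctrl D.

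The mean of *Nae1* was 61.7 ± 2.56 CPM over the 7 ctrl embryos, 51.3 ± 5.78 over the 5 cKO-E embryos and 47.7 ± 5.88 over the 7 dKO-E embryos (± SD). It fell at 0.05 but not at 0.001 in both mutants, with log2 fold changes of -0.27 (SE 0.08, adjusted p = 0.0237) in cKO-E and -0.39 (SE 0.07, adjusted p = 0.00124) in dKO-E. In cKO-E it was past 0.05 no longer without cKO-E E, the lowest of the cKO-E embryos (log2 fold change -0.20, adjusted p = 0.0621). With litter as a covariate, where ctrl and cKO-E embryos shared 3 litters, *Nae1* in cKO-E had -0.28 and missed 0.05 (adjusted p = 0.0814). The fall of *Nae1* was thus smaller than that of *Uba3* in each mutant, and the difference between the 2 genes was not tested, since *Uba3* was selected.

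*Ube2m* and *Ube2f* encode the E2 enzymes, which pair with different cullin partners. *Ube2m* had 29.1 ± 6.28 CPM over the 7 ctrl embryos, 31.4 ± 2.81 over the 5 cKO-E embryos and 32.8 ± 6.19 over the 7 dKO-E embryos (± SD). *Ube2f* had 42.1 ± 3.33, 43.6 ± 4.83 and 47.0 ± 3.31 CPM in the same groups. Neither passed the test in either mutant, and both groups of mutants overlapped ctrl. The largest log2 fold changes were 0.20 (95% interval -0.08 to 0.49) for *Ube2m* and 0.17 (0.02 to 0.32, unadjusted p = 0.0271, adjusted p = 0.114) for *Ube2f*, both in dKO-E.

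Of the cullins, *Cul5* (ENSMUSG00000032030.16, chromosome 9, 53614582 to 53670014, minus strand) was lower in both mutants. Its expression ranged from 139 to 159.5 CPM with a median of 145 in ctrl. It was 117, 114, 104, 112 and 124 CPM in the cKO-E embryos, and from 98.1 to 145 with a median of 119.8 in dKO-E. All 5 cKO-E embryos were below all ctrl embryos, and in dKO-E only embryo G reached into the ctrl range.

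Mean *Cul5* expression was 147 ± 6.92 CPM over the 7 ctrl embryos, 114 ± 7.35 over the 5 cKO-E embryos and 121 ± 14.3 over the 7 dKO-E embryos (± SD). It fell at 0.001 in cKO-E (log2 fold change -0.36, SE 0.06, adjusted p = 0.000434) and at 0.05 in dKO-E (-0.30, SE 0.07, adjusted p = 0.00455). Without ctrl A, ctrl D, cKO-E A, cKO-E B, cKO-E C or cKO-E D the cKO-E value missed 0.001, with adjusted p up to 0.00208 and log2 fold changes between -0.37 and -0.32. With litter as a covariate it had -0.35 and passed 0.05 only (adjusted p = 0.0106). Exons of *Cul5* share 110 bases with *Gm16124* on the opposite strand.

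*Cul1*, the scaffold of the SCF ligases, was the most counted of the 10 genes, with 331 ± 23.9 CPM over the 7 ctrl embryos, 318 ± 15.8 over the 5 cKO-E embryos and 321 ± 16.9 over the 7 dKO-E embryos (± SD). *Cul3*, the scaffold of ligases with BTB adaptors such as KEAP1, had 259 ± 8.98, 263 ± 9.72 and 258 ± 33.3 CPM, and *Cul2*, the scaffold that carries the VHL adaptor, had 62.0 ± 4.89, 59.1 ± 4.69 and 56.6 ± 4.29. None of the 3 passed the test, and all groups overlapped. Their log2 fold changes lay between -0.09 and 0.02 in cKO-E, and between -0.16 and -0.02 in dKO-E, where *Cul2* had the lowest (95% interval -0.30 to -0.02, unadjusted p = 0.0309, adjusted p = 0.124). For *Cul1* and *Cul3* the intervals in both mutants stayed between -0.19 and 0.13, so changes as large as that of *Cul5* in cKO-E lay outside them. *Cul1* exons share 192 bases with *A930035D04Rik* on the opposite strand.

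*Cand1*, the exchange factor, had 242 ± 8.50 CPM over the 7 ctrl embryos, 226.5 ± 4.55 over the 5 cKO-E embryos and 248 ± 14.5 over the 7 dKO-E embryos (± SD). The cKO-E embryos had 224.5, 229, 228, 231 and 219.6 CPM, under the lowest ctrl embryo at 232, yet the log2 fold change of -0.10 (95% interval -0.20 to 0.0055) missed the test, with an unadjusted p of 0.0623 and an adjusted p of 0.192. In dKO-E the log2 fold change was 0.03 (-0.08 to 0.13) and the groups overlapped. Between the mutants dKO-E was 0.13 above cKO-E on the log2 scale (0.01 to 0.25, unadjusted p = 0.0347, adjusted p = 0.142).

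Read against all genes, 1 of the 9 genes other than *Uba3* was lower at 0.001 in cKO-E, where 2.32% of the 11660 genes tested were lower, and 2 were lower at 0.05, where 9.88% were. In dKO-E 0 were lower at 0.001 by edgeR's quasi-likelihood test, against 2.34% of the 11381 genes tested, and 2 were lower at 0.05, against 10%. By DESeq2 2 were lower at 0.001, against 467 of the 11381 genes, and by the likelihood ratio test of edgeR 2, against 498. At an unadjusted p under 0.05 by the quasi-likelihood test 3 were lower, against 1876 of the 11381. All cKO-E embryos were under all ctrl embryos in 3 of the 9 genes, against 5.56% of genes tested, and all dKO-E embryos in 1, against 3.24%. None of the 9 was higher at either threshold in either mutant, where 5.45% of all genes in dKO-E and 7.31% in cKO-E were higher at 0.05. At an unadjusted p under 0.05, 1 of the 9 was higher in dKO-E, against 1496 of the 11381 genes tested. In cKO-E 0 of the 9 were, against 1672 of the 11660. The median log2 fold change of the 9 was -0.06 in cKO-E, against 0.02 over all genes, and -0.02 in dKO-E, against 0.01. A count of 1 to 3 genes in 9 allows no statement about the list as a whole.

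**Figure D2:**
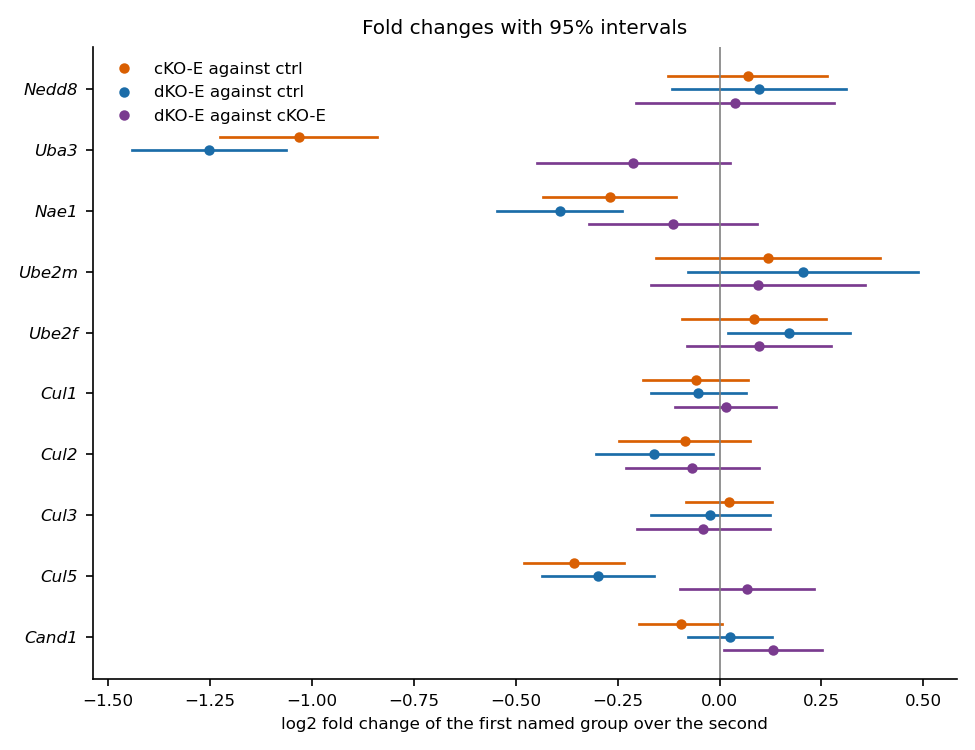
Log2 fold changes (horizontal axis) of the 10 genes in 3 comparisons, with points for the fitted value and lines for the 95% interval from the SE; a negative value means lower in the first named group. The cKO-E and dKO-E intervals of *Uba3*, *Nae1* and *Cul5* lie wholly below 0, and for *Uba3* the values with dKO-E are those it was selected on.

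By genotype, the dKO-E embryos differ from the cKO-E embryos in the loss of *Trp53*. At 0.05, 0 of the 9 genes differed between the mutants by edgeR's quasi-likelihood test. Of the 11746 genes tested, 9.42% were lower and 5.59% higher in dKO-E at that threshold. DESeq2 and the likelihood ratio test also called 0 of the 9. At an unadjusted p under 0.05 by the quasi-likelihood test 1, *Cand1*, was higher and 0 were lower. Of all genes tested, 1492 were higher and 1739 lower at that level. The log2 fold change of *Nae1* was -0.11 (95% interval -0.32 to 0.09) and that of *Cul5* 0.07 (-0.10 to 0.23). For *Nae1* the interval leaves room for a further drop in dKO-E as large as its fall in cKO-E. No litter held embryos of both mutants, so genotype and litter cannot be told apart in this comparison. The mutants also differed in sex, with 4 females and 1 male in cKO-E against 2 and 5 in dKO-E. Only dKO-E held an embryo of sequencing batch 3.

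Levels of different genes were compared per kilobase of exon, which sets all annotated exons of a gene as its length and is a coarse scale where isoforms differ. On it, *Cul1* stood highest in ctrl with 82.0 ± 5.90 CPM per kb (SD, n = 7), then *Cul3* with 53.2 ± 1.84, *Cand1* with 29.0 ± 1.02, *Nedd8* with 25.8 ± 2.32 and *Cul5* with 17.97 ± 0.847. *Cul2* with 14.7 ± 1.16, *Uba3* with 13.8 ± 1.37 and *Ube2m* with 12.3 ± 2.66 followed and did not differ beyond their spread, and *Nae1* with 7.52 ± 0.312 and *Ube2f* with 4.76 ± 0.376 were lowest. In cKO-E, *Uba3* had 6.62 ± 0.836 CPM per kb (SD, n = 5) and stood beside *Nae1* with 6.25 ± 0.704. In dKO-E they had 5.70 ± 0.825 and 5.81 ± 0.717 (SD, n = 7).

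Ratios between genes of the same library do not depend on how libraries are scaled. The ratio of *Uba3* to *Nae1* counts per kb ranged from 1.58 to 2.16 with a median of 1.76 in ctrl. It was 0.923, 1.12, 1.11, 0.951 and 1.22 in the cKO-E embryos and ranged from 0.817 to 1.07 with a median of 1.04 in dKO-E. Every mutant library lay below every ctrl library, which is a description, since *Uba3* was selected. The share of *Cul5* in the summed counts per kb of *Cul1*, *Cul2*, *Cul3* and *Cul5* averaged 10.7% ± 0.643 over the 7 ctrl, 8.70% ± 0.540 over the 5 cKO-E and 9.22% ± 0.786 over the 7 dKO-E libraries (± SD). All cKO-E shares were under all ctrl shares, the nearest pair being 9.26% in cKO-E A and 9.65% in ctrl D, and the dKO-E shares overlapped ctrl.

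**Figure D3:**
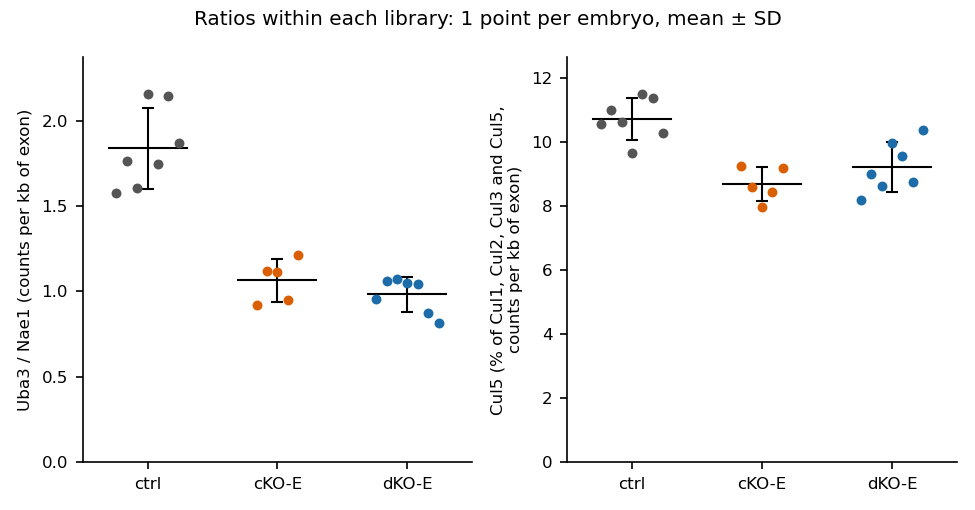
Left, the ratio of *Uba3* to *Nae1* counts per kb of exon, and right, the share of *Cul5* in the counts per kb of 4 cullins in percent, each with 1 point per embryo and bars for the mean ± SD (n = 7, 5 and 7). The mutant ratios on the left, up to 1.22, lie under the lowest ctrl ratio, 1.58, and on the right the cKO-E points lie under ctrl while dKO-E overlaps it.

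Litters and sequencing batches were unevenly spread over the groups. Among littermates, *Uba3* was 78.0 CPM in the ctrl embryo of litter 4 and 46.5 in its cKO-E embryo, 87.6 and 97.2 against 49.3 in litter 5, and 85.7 and 101 against 39.2 in litter 7. In litter 1, the only litter with ctrl and dKO-E embryos, the 2 ctrl embryos had 77.7 and 87.0 CPM, and the 3 dKO-E embryos ranged from 27.4 to 40.8. *Nae1* and *Cul5* were also lower in the mutant littermates in each of these 4 litters. The smallest gap of *Nae1* was in litter 5, with 56.9 CPM in cKO-E against 58.0 and 64.7 in ctrl, and that of *Cul5* in litter 7, with 124 against 139 and 146.5.

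Within sequencing batch 1, with 4 ctrl, 3 cKO-E and 4 dKO-E embryos, *Uba3* had log2 fold changes of -0.94 for cKO-E and -1.17 for dKO-E, and within batch 2, with 3, 2 and 2 embryos, it was -1.23 and -1.49. *Nae1* had -0.21 and -0.43 in batch 1, and -0.46 and -0.31 in batch 2. For *Cul5* the values were -0.40 and -0.34 in batch 1, and -0.30 and -0.23 in batch 2. All of these kept the direction of the whole comparison, but in batch 2 alone neither *Nae1* nor *Cul5* passed 0.05 in either mutant, with adjusted p from 0.107 to 0.346, and in batch 1 alone *Nae1* missed it in cKO-E (adjusted p = 0.115). Batch 3 held 1 embryo, dKO-E E. Both sexes showed the lower level: *Uba3* in cKO-E was 37.6 to 46.5 CPM in 4 females and 49.3 in the single male.

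**Figure D4:**
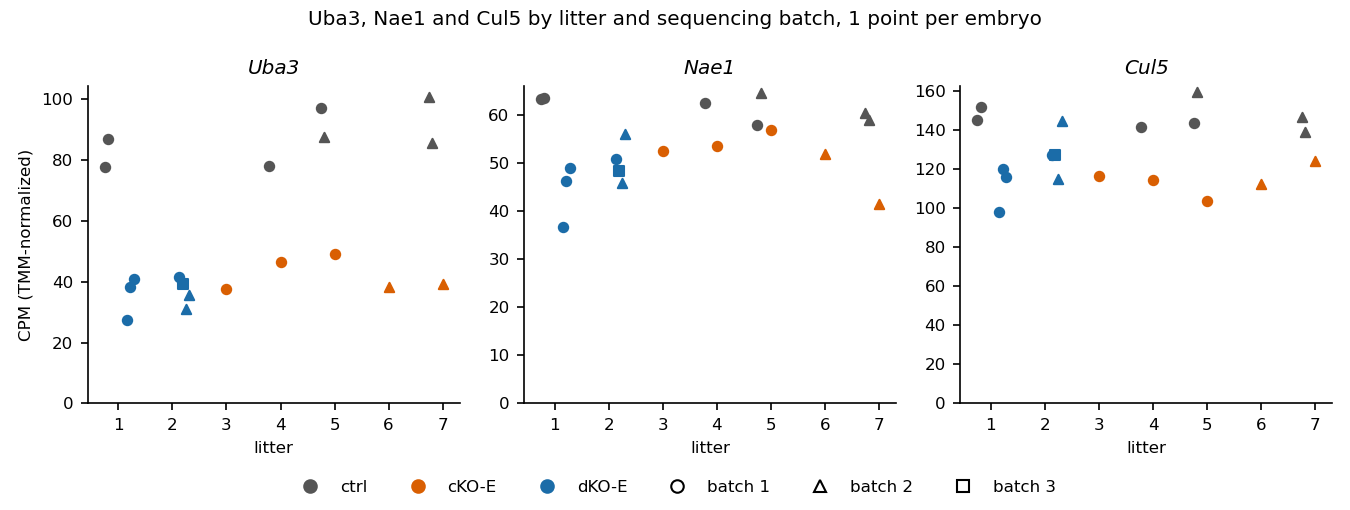
Expression in CPM (vertical axes, starting at 0) of *Uba3*, *Nae1* and *Cul5* by litter (horizontal axis), with 1 point per embryo, colours for the genotype and shapes for the sequencing batch. In litters 1, 4, 5 and 7, which held ctrl and mutant embryos, the mutant points of each gene lie below the ctrl points.

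Beyond the 10 genes, 42 further genes of the pathway were followed in 5 lists, namely other cullins, partners of the NEDD8 ligase reaction, enzymes that process or remove NEDD8, cullin regulators and substrate adaptors, and 41 of them were tested in each comparison. *Cul7* was at 0 counts in every library, which, as for *Sox2*, cannot be read as absent expression. In cKO-E 0 of the 41 passed 0.001 or 0.05 by edgeR's quasi-likelihood test, where 2.32% of all genes were lower at 0.001, and 9.88% lower and 7.31% higher at 0.05. At an unadjusted p under 0.05, 5 of the 41 were lower and 1 was higher, against 1804 lower and 1672 higher of all 11660 genes tested. Their log2 fold changes there ranged from -0.25 for *Dtl* to 0.27 for *Cops7b*, with a median of 0.02. In dKO-E 1 was lower at 0.001, against 2.34% of all genes, 2 were lower at 0.05, against 10%, and 2 were higher, against 5.45%, shares near or under those of all genes. The median there was 0.05.

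The gene called in dKO-E was *Btrc*, the F-box protein beta-TrCP that recruits phosphorylated substrates such as beta-catenin to CUL1 ligases. Its mean went down from 195 to 154 CPM (log2 fold change -0.36, SE 0.06, adjusted p = 0.000635), and all dKO-E embryos were below all ctrl embryos. The call at 0.001 rested on the full set of libraries: it was lost without any 1 of ctrl A, B, C or D or of dKO-E A, B, C, D, E or G, with adjusted p up to 0.00253. At 0.05 *Cops6*, a subunit of the COP9 signalosome that removes NEDD8 from cullins, fell by 0.50 on the log2 scale (SE 0.10, adjusted p = 0.00198). *Gps1*, another subunit of that complex, rose (log2 fold change 0.35, SE 0.10, adjusted p = 0.0210), a call lost without dKO-E B (0.30, adjusted p = 0.0506), and so did *Dcaf1*, a receptor of CUL4 ligases (0.20, SE 0.05, adjusted p = 0.0117). With litter as a covariate *Cops6* (-0.44, adjusted p = 0.130), *Gps1* (0.35, adjusted p = 0.222) and *Dcaf1* (0.20, adjusted p = 0.185) missed 0.05, and in batch 2 alone these and *Btrc* (-0.12, adjusted p = 0.573) did. *Cops6* and *Gps1* differed in direction, and the other 8 of the 10 signalosome genes did not pass 0.05.

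Between the mutants, 3 of the 41 genes exceeded cKO-E in the dKO-E embryos at 0.05, a share near the 5.59% of all genes, and 0 were lower. All 3 encode substrate receptors. *Ccnf*, cyclin F, had 75.8 CPM in ctrl, 63.9 in cKO-E and 83.3 in dKO-E, and the mutants differed by 0.40 on the log2 scale (SE 0.09, adjusted p = 0.00583). *Dtl*, the receptor that sends CDT1 to CUL4 ligases, had 96.2, 79.6 and 104 CPM (0.38, SE 0.08, adjusted p = 0.00443). *Skp2*, which recruits p27, had 70.6, 63.4 and 76.2 CPM (0.31, SE 0.10, adjusted p = 0.0449), and this call was lost in 8 of the 12 fits that left out 1 library. It was also lost under 4 other settings, among them DESeq2 and batch 2 alone. None of the 3 passed 0.05 against ctrl in either mutant. The progenitor markers, whose sums are given above, were also lower in cKO-E than in ctrl, and their part in these values was not tested.

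**Figure D5:**
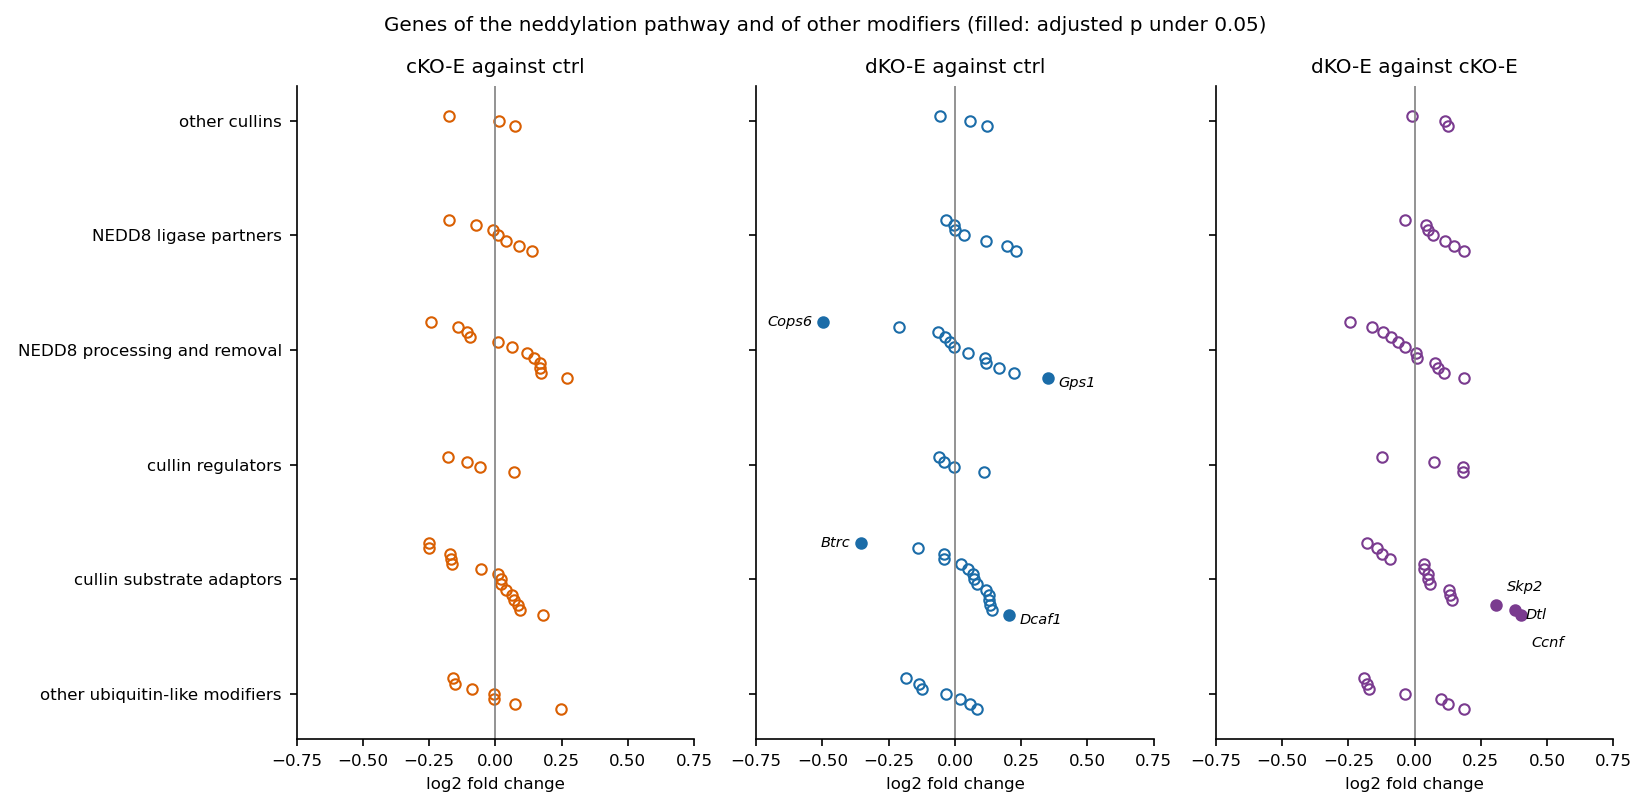
Log2 fold changes (horizontal axes) of genes of the neddylation pathway and of other ubiquitin-like modifiers, by list (vertical axis) and comparison (panels), with 1 circle per gene and filled circles for an adjusted p under 0.05. No pathway list has a filled circle in cKO-E, and *Cops6*, *Btrc*, *Gps1* and *Dcaf1* are filled in dKO-E.

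The E1 enzymes of other modifiers are the relatives of *Uba3* and *Nae1*. Of 7 tested in cKO-E and 6 tested in dKO-E, 0 were lower than ctrl at 0.05 by edgeR's quasi-likelihood test, against 9.88% and 10% of all genes. At an unadjusted p under 0.05, 0 were lower too, against 1804 of 11660 genes in cKO-E and 1876 of 11381 in dKO-E. *Uba1*, the main ubiquitin E1, rose in cKO-E (0.25, SE 0.05, adjusted p = 0.00332) and stood below that level in dKO-E (-0.22 between the mutants, SE 0.07, adjusted p = 0.0290). That last call was lost in 5 of the 12 fits that left out 1 library. It was also lost under 7 other settings, among them batch or sex as a covariate and batch 1 or batch 2 alone. *Uba7*, the E1 of ISG15, had at most 0.239 CPM on average in a group. Of 7 tested genes of other ubiquitin-like modifiers, 0 passed 0.05 in any comparison.

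The genes next to *Uba3* were followed because they share its position. *Tmf1*, which lies 4548 bases downstream on the same strand, had log2 fold changes of -0.01 (adjusted p = 0.948) in cKO-E and -0.03 (adjusted p = 0.833) in dKO-E. *Arl6ip5*, which starts 5042 bases upstream on the opposite strand, had 24.2 CPM in ctrl, 22.6 in cKO-E and 15.9 in dKO-E. It fell at 0.05 in dKO-E (log2 fold change -0.61, SE 0.12, adjusted p = 0.00186), with all dKO-E embryos below all ctrl embryos, and not in cKO-E (-0.17, adjusted p = 0.315). With litter as a covariate the dKO-E value was -0.47 and missed 0.05 (adjusted p = 0.117). *Frmd4b*, 81220 bases upstream, was lower in dKO-E at 0.05 (-0.28, adjusted p = 0.0308), a call lost without ctrl B, C or D or dKO-E B, D, F or G, with adjusted p up to 0.0734. In cKO-E *Frmd4b* did not pass 0.05 against ctrl (0.14, adjusted p = 0.4005). Between the mutants it was lower in dKO-E (-0.42, SE 0.10, adjusted p = 0.00546), a call lost in batch 2 alone (-0.35, adjusted p = 0.0846). *Eogt*, 34488 bases downstream, did not pass 0.05 in any comparison.

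Across the 19 libraries, the genes most like *Uba3* among 11306 tested in every comparison were *Usp24*, *Prkdc*, *Ncor1*, *Tet2* and *Zdhhc17*, with Pearson correlations of log2(CPM + 1) of 0.96, 0.96, 0.96, 0.95 and 0.95. These correlations follow the genotypes, and within genotypes they were 0.56, 0.46, 0.26, 0.12 and 0.34. Of the listed genes, *Nae1* was the most like *Uba3*, with 0.83 over all libraries and 0.49 within genotypes, then *Cul5* with 0.78 and 0.29. The other 7 lay between -0.40 and 0.43 over all libraries. The libraries share a depth and a scaling factor each, and these values are descriptions.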

How the data were processed

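RNA of E13.5 cortex was sequenced from 19 embryos. Per the labels and the methods, ribosomal RNA was depleted, libraries were built by Click-seq, in which azido-nucleotides stop cDNA synthesis and a clicked adaptor carries a molecular identifier (UMI), and reads were trimmed with cutadapt 1.13, aligned to mm10 with STAR 2.5.2a, deduplicated with UMI-tools 0.5.3 and counted with HTSeq 0.6.1p1 in intersection-nonempty mode. The authors deposited these whole-number counts per gene without normalization. Reads not assigned to a gene, in 5 summary rows per file (23.3% to 31.9% of reads), were left out. The annotation release and strand setting of the counting are not given in the sources used here. Of 51912 gene identifiers, 51719 were matched to GENCODE M21 without version.

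Counts were filtered with filterByExpr (minimum count 10), scaled by TMM factors and tested in edgeR 4.0.16 (R 4.3.3) by the quasi-likelihood test, 1 fit per comparison without covariates, with Benjamini-Hochberg adjustment of p over every gene in the fit. CPM use TMM factors over all 19 libraries. SE is the log2 fold change divided by the root of the F statistic, and the 95% intervals use it with the degrees of freedom of the test. A difference is called at 0.001 against ctrl, the study's value, with 0.05 beside it, and at 0.05 between mutants. The p values measure the spread between these embryos. The 10 genes and all lists were chosen with earlier results of these data known. Named beside them are listed genes past a threshold, genes within 100000 bases of *Uba3*, the 5 most correlated with it, the targeted genes, and single examples from the lists. Alternatives covered the likelihood ratio test, DESeq2 1.42.0, other factors and filters, covariates, single batches and each library left out. The values of 1 listed gene are not reported here. The tests were checked on simulated counts. Figures were drawn with matplotlib.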

Additional observations from a re-analysis of the deposited data

Results flagged for a closer look

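*Nedd8* stood apart in cKO-E A, with 29.1 CPM against 34.6 in the nearest of the other 4 cKO-E embryos, a gap of 0.746 of the range of the group. *Cul2* stood apart in ctrl H, with 51.7 CPM against 61.5 in the nearest ctrl embryo, a gap of 0.6248 of the range. These are 2 of 30 groups of embryos examined for the 10 genes, and chance alone marks about 1 in 20 groups.

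Cell type markers aside, 6 listed genes differed between the mutants at 0.05 by the quasi-likelihood test of dKO-E against cKO-E. By list they were 3 of 41 pathway genes tested, 1 of 7 E1 enzymes of other modifiers and 2 of 7 targets of NRF2, described below. Of all 11746 genes tested, 9.42% were lower and 5.59% higher at that threshold. On the log2 scale *Ccnf* (0.40, adjusted p = 0.00583), *Dtl* (0.38, adjusted p = 0.00443) and *Skp2* (0.31, adjusted p = 0.0449) were higher, and *Uba1* (-0.22, adjusted p = 0.0290), *Hmox1* (-1.02, adjusted p = 0.0182) and *Slc7a11* (-1.14, adjusted p = 0.0363) were lower. *Slc7a11* lost its call in 9 of the fits that left out 1 library, *Skp2* in 8, *Uba1* in 5 and *Hmox1* in 1, without cKO-E C (adjusted p = 0.0589). Other settings removed calls too: 7 for *Uba1*, 4 each for *Skp2* and *Slc7a11*, 2 for *Hmox1* and 1 each for *Ccnf* and *Dtl*. Sex as a covariate was among them for *Uba1* and *Slc7a11*. Summed microglial markers were higher in all cKO-E libraries than in all others, though *P2ry12*, 1 of the 10 markers, averaged 1.28 CPM in cKO-E and 1.85 in ctrl. The part of microglia in the values of *Hmox1*, which macrophages also express, was not tested.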

How the results depend on the processing

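Direction was kept by *Nae1* and *Cul5* against ctrl under every alternative run, while the calls of single genes depended on the threshold. *Uba3* kept its direction too, which is a description, since it was selected on its low level in dKO-E. Of the 9 genes other than *Uba3*, 1 was lower in cKO-E at 0.001 and 2 at 0.05, and 0 were lower at 0.001 with total counts alone, litter as a covariate, the letter of the label as a replicate block, batch 1 alone or batch 2 alone; with 1 library left out the number lay between 0 and 1. In dKO-E 0 became 2 at 0.05, with the likelihood ratio test and with DESeq2, and 1 with sex as a covariate. Pathway genes lower in dKO-E went from 1 to 2 at 0.05, with the likelihood ratio test and with DESeq2, and to 0 with upper-quartile factors, total counts alone, batch or litter as a covariate, the replicate block and batch 2 alone, with 0 to 1 when 1 library was left out; those higher went from 0 to 2 at 0.05. Between the mutants, 3 pathway genes higher became 0 at 0.001 and in batch 2 alone, where *Skp2* turned to -0.11 (adjusted p = 0.873). There, 1 of the 9 genes, *Cand1*, was higher with total counts alone (0.19, adjusted p = 0.0333), and 1 pathway gene was lower with sex as a covariate and without dKO-E F, with 0 to 1 over the libraries left out. The cause of these changes was not tested beyond the thresholds and the fewer embryos that define them. *Nae1* in cKO-E missed 0.05 in 6 of 26 alternatives (adjusted p from 0.0119 to 0.137 over all) and *Cul5* in 1. In dKO-E against ctrl, *Ube2f* and *Cul2*, which missed 0.05 in the main fit, passed it under at least 1 alternative, with adjusted p down to 0.0188 and 0.04345.

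Same letters did not pair embryos: deviations from the group means correlated between -0.38 and 0.13, and the same letter mostly stood for different litters. With the replicate block the log2 fold change in cKO-E was -0.94 for *Uba3*, -0.21 for *Nae1* and -0.38 for *Cul5*, and in dKO-E 36 genes of all tested were lower at 0.001 in place of 266. Over all genes, the number lower at 0.001 ranged from 10 to 530 in cKO-E and from 12 to 498 in dKO-E, and higher from 20 to 306 and from 1 to 117. At 0.05 between the mutants, 280 to 1369 were lower and 25 to 1079 higher. Litter as a covariate could not be fitted between the mutants. The shallowest library, cKO-E D, held 31 counts of *Uba3*.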

Other observations

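Targets of NRF2, the factor that CUL3 ligases with KEAP1 hand to the proteasome, and of HIF, which CUL2 ligases with VHL degrade, were listed as readouts of cullin ligases. Of 8 NRF2 targets, 5 had enough counts in cKO-E and 4 in dKO-E. *Hmox1*, the heme oxygenase, rose in cKO-E from 1.90 to 5.78 CPM (log2 fold change 1.48, SE 0.30, adjusted p = 0.00263) with no overlap of the groups, and was too low to be tested in dKO-E against ctrl. Its ctrl mean lay within the range that a count of 3 equals across libraries, 0.371 to 3.65 CPM, and the part of microglia in its rise was not tested. *Slc7a11* averaged 1.39 CPM in ctrl, 5.72 in cKO-E and 2.49 in dKO-E, and was too low to be tested against ctrl in either mutant. *Gclc*, *Gclm*, *Txnrd1* and *G6pdx* did not pass 0.05 in either mutant, with log2 fold changes from -0.25 to 0.01 in cKO-E and from -0.21 to -0.01 in dKO-E. *Nqo1* stood at or under 0.550 CPM on average in each group. Of 10 HIF targets, 7 were tested in each mutant, and 0 passed 0.05 by edgeR's quasi-likelihood test. In cKO-E 1 of these was lower and 1 higher at an unadjusted p under 0.05, and in dKO-E 0. At that level, 1804 of all 11660 genes tested were lower and 1672 higher in cKO-E, and 1876 and 1496 of 11381 in dKO-E.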
